A study of Mus musculus with 4 samples.

Results

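The genes described here are 46 genes of the cell division cycle. They were taken by symbol, and each symbol matched a row of the deposited count tables, which hold 32285 genes. By their textbook roles 18 were set as S phase genes, which copy the DNA and supply its building blocks, and 25 as G2/M genes, which run mitosis. The other 3 (Stmn1, Smc2 and Hmgb2) belong to neither set. Single cells came from lungs of mice of 4 groups: LAIR1KO with B16/F10 tumor, WT with B16/F10 tumor, LAIR1KO with normal lung and WT with normal lung. B16/F10 is a mouse melanoma line, and LAIR1 is an inhibitory receptor of leukocytes that binds collagen. The labels give no age, no strain beyond the genotype and no account of how the tumor was given or how Lair1 was removed. Each group is 1 library with 3 hashtagged replicates, so library and group cannot be told apart, and no label says that the replicates are separate animals. All p-values measure the spread between these replicates.

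A cell that enters division loads the MCM helicase (Mcm2 to Mcm7), turns on the cyclin E genes (Ccne1, Ccne2) and the nucleotide enzymes (Rrm1, Rrm2, Tyms, Tk1), and copies its DNA with the sliding clamp Pcna and its partner Pclaf. Later it accumulates mitotic cyclins (Ccna2, Ccnb1, Ccnb2) with their kinase Cdk1, untangles the DNA with topoisomerase Top2a, builds the spindle with motors and kinases (Kif11, Aurka, Plk1, Tpx2), checks the kinetochores (Bub1, Bub1b, Cenpe, Cenpf) and exits through Cdc20 and Ube2c. Mki67 coats the chromosomes of mitotic cells and is the common marker of proliferation. In lung, resident macrophages are known to renew themselves locally, whereas mature neutrophils do not divide.

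The gene counts summed to 25877517, 27249807, 28034709 and 25216301 unique molecular identifiers (UMIs) in the LAIR1KO tumor-bearing, WT tumor-bearing, LAIR1KO normal and WT normal libraries. Of 15793 cells that passed the filters, 8468 had a single hashtag and were used, in replicates of 510 to 1050 cells. Cell types are named from clusters built without any cell cycle gene, and "-like" marks a name that rests on marker genes. In interstitial macrophage-like cells Lair1 had 1 UMI in LAIR1KO tumor-bearing and 0 in LAIR1KO normal lung, against 600 in WT tumor-bearing and 240 in WT normal lung. Xist stood at 1120 to 1374 CPM, UMIs scaled by the total of the replicate, in the replicates of the LAIR1KO tumor-bearing, WT tumor-bearing and LAIR1KO normal groups and at 0.233 to 0.458 CPM in WT normal lung, where the Y-linked Ddx3y stood at 185 to 202 CPM. WT normal lung was therefore male and the other groups female, and every difference from WT normal lung cannot be told apart from sex. Any 2 libraries shared 3 to 7 barcodes.

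Promoters of 5 members are printed because S and G2/M genes are known to differ in what lies before their start. G2/M genes are known for a cell cycle homology region (CHR) near CCAAT boxes, and S genes for E2F sites. The windows come from RefSeq (GRCm38.p6), run from 250 bases before to 50 bases after the start of the gene and are written on the strand of the gene. Capitals mark letters of a CHR (TTTGAA), of the box written CCAAT, or of an E2F site (TTTCGCGC, TTTGGCGC, TTTCCCGC or TTTGCCGC), searched on both strands, and motifs that overlap each count. The form of the CHR with a central CG (TTCGAA) was counted too. Mki67 lies at chr7:135716330-135716629 on the minus strand, Top2a at chr11:99024140-99024439 on the minus strand, Ccnb2 at chr9:70421505-70421804 on the minus strand, Mcm5 at chr8:75109259-75109558 on the plus strand and Rrm2 at chr12:24708004-24708303 on the plus strand.
Mki67: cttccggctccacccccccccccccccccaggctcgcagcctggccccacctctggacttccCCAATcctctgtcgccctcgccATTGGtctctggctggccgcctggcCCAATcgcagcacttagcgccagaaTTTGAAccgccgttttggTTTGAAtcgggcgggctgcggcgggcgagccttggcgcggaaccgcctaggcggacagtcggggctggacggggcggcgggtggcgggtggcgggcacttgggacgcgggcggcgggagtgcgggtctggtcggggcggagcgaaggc
Top2a: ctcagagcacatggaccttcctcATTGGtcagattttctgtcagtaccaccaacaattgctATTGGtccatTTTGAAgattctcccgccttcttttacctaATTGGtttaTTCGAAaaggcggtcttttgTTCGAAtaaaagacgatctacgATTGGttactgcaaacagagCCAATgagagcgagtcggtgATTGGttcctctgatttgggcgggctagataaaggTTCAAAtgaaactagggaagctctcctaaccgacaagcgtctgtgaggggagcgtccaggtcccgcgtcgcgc
Ccnb2: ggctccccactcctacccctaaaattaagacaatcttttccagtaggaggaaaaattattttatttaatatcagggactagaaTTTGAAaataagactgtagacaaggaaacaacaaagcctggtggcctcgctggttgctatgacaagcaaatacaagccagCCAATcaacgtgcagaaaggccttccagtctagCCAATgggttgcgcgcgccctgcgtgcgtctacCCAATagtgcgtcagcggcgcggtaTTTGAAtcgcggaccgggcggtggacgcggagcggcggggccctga
Mcm5: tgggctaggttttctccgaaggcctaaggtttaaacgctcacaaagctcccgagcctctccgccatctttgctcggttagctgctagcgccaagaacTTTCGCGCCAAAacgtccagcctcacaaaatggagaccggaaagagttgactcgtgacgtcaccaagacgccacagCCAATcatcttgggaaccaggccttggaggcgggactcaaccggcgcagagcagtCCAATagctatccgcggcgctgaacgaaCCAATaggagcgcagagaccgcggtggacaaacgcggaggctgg
Rrm2: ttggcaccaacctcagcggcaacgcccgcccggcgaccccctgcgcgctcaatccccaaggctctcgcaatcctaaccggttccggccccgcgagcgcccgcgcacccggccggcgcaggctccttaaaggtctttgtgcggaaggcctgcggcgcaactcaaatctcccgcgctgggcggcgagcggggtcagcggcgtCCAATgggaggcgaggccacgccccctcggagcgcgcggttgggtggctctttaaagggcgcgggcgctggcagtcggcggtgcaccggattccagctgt

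The Top2a window held 4 CHR and 6 CCAAT matches, and the Mki67 window held 2 CHR matches, 116 and 98 bases before the start, downstream of 3 CCAAT boxes. The Ccnb2 window, of a mitotic cyclin, held 2 CHR and 3 CCAAT matches. The Mcm5 window held no CHR, 3 CCAAT boxes and 2 overlapping E2F matches 153 and 149 bases before the start, while that of Rrm2, the small subunit of ribonucleotide reductase, held 1 CCAAT box. Of the 46 members 38 matched the RefSeq table, with 41 windows. A CHR stood in 17 of the 22 windows of G2/M members (77.3%), in 2 of the 17 of S members (11.8%) and in 19.2% of all 32851 windows of the table. CCAAT boxes stood in 90.9% of G2/M, 70.6% of S and 37.4% of all windows, and E2F matches in 4.55% of G2/M, 41.2% of S and 2.26% of all windows. A match describes letters and is not a measured binding site.

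Interstitial macrophage-like cells were the class with the most dividing cells in each group, while dendritic and T cell-like cells held a larger share of dividing cells within their own class. Members made up 0.0936% of all UMIs in the filtered cells, with 143 UMIs for Plk1 at the low end and 29396 for Hmgb2, a chromatin protein, at the high end. A cell was counted as dividing when at least 10 of 41 members were seen in it. Cks1b, Cks2, Stmn1, Smc2 and Hmgb2 were left out of this count because resting cells also hold them. Some members that were kept also occur outside dividing cells. Pcna had a UMI in 61.7% and Cenpa in 15.9% of the interstitial macrophage-like cells outside the call from other genes given below. By this rule 132 cells were dividing, and 73 of them (55.3%) were interstitial macrophage-like, a class that made up 18.4% of the cells. By group they were 18 of 41 dividing cells in LAIR1KO tumor-bearing (43.9%), 37 of 58 in WT lung with tumor (63.8%), 7 of 16 in LAIR1KO normal (43.8%) and 11 of 17 in WT normal lung (64.7%). The rule sets a limit within a range: 38 of these cells had 10 to 13 members and a further 124 cells had 6 to 9. Cells counted as dividing had more UMIs (median 11392, against 4878.5 in the other cells of all classes). The rule itself favors such cells, since more UMIs show more members, and classes differ in depth. A further call therefore thinned each cell to 2000 UMIs, left out 2151 shallower cells and asked for at least 3 of the 41 members. It counted 239 cells, 56.5% of them interstitial macrophage-like, and included 121 of the 132. Of its 135 interstitial macrophage-like cells 52 had exactly 3 members, so members seen in resting cells can carry a cell into this call. One more call that used none of the members, at least 8 of 70 other cell cycle genes, counted 125 cells, of which 113 were among the 132.

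Among dendritic cell-like cells 16 of 172 were dividing (9.30%, exact 95% interval 5.41 to 14.7), and 11% were so after thinning. For T cell-like cells the count was 11 of 139 (7.91%, 4.02 to 13.7), with 13.5% after thinning. Interstitial macrophage-like cells had 73 of 1560 (4.68%, 3.69 to 5.85) and 8.84%. These were the 3 highest shares by the first call. After thinning natural killer cell-like cells also stood high, with 8 of the 63 cells deep enough (12.7%), against 2 of 106 (1.89%) unthinned at a median of 2203.5 UMIs. Alveolar macrophage-like cells, which clear the air spaces, followed with 8 of 209 (3.83%) and 6.31%. Structural cells rarely divided, with 5 of 533 alveolar type 2 (0.938%), 6 of 1112 endothelial (0.540%) and 4 of 1258 fibroblast-like cells (0.318%). Neutrophil-like cells had 0 of 2191 cells with at least 10 members, which allows a share of up to 0.137% by 3 counts (exact upper bound 0.168%). Their median was only 1614 UMIs, so this limits cells seen with 10 members and not dividing cells. After thinning 1 of the 540 cells deep enough was counted (0.185%). All intervals and limits cover counting error only.

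**Figure D1:**
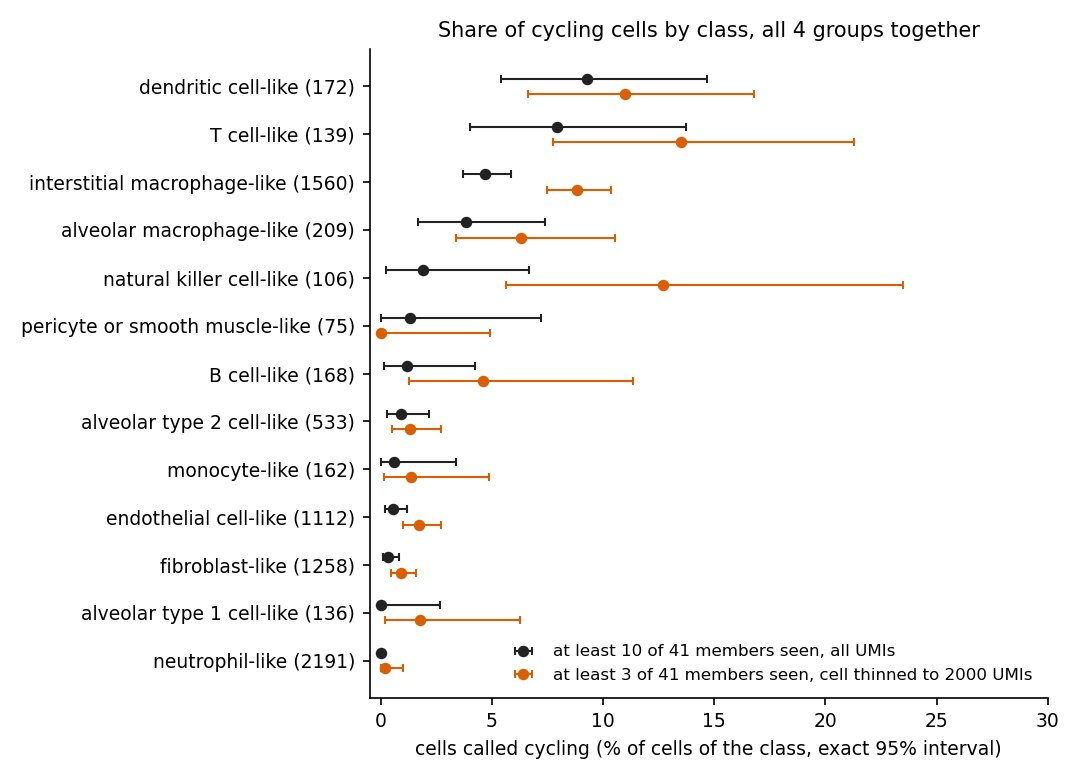
Share of dividing cells (x axis, percent) in each named class of at least 50 cells, with exact 95% intervals. Black points count cells with at least 10 of 41 members and orange points count thinned cells with at least 3; dendritic, T and interstitial macrophage-like cells lead the first call at 9.30, 7.91 and 4.68%, and neutrophil-like cells lie at 0.

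Dividing cells were not spread evenly within a class. Of the 3 interstitial macrophage-like clusters, the one led by Cx3cr1 and Trem2 held 46 dividing cells of 591 (7.78%, 5.75 to 10.2), the one led by Folr2 and Cd163 held 13 of 585 (2.22%, 1.19 to 3.77) and the one led by Ccl3 and Ccl4 held 14 of 384 (3.65%, 2.01 to 6.04). Among dendritic cell-like cells all 16 lay in 1 cluster (16 of 127, 12.6%) and 0 of 45 in the other. Over 14 markers of interstitial macrophages the median share of cells with a UMI was 93.2% in the dividing macrophages and 94.3% in the other cells of the class. None of the 14 was at 0. The class was named from these same markers, so the shares are no separate check of the name. These shares were read at a median of 10562 UMIs in dividing and 5334 in the other cells. The summed level of the 14 markers was lower in dividing cells, at 23875 CPM against 35703 CPM in the other cells. Of 8 melanoma markers 5 were at 0 in the dividing macrophages, with summed levels of 69.7 and 75.6 CPM in dividing and other cells. Each of the 5 had a UMI in at most 0.269% of the other cells, so a 0 in 73 cells says little. Mitf made up most of both sums (56.5 and 57.8 CPM). Pmel stood at 3.60 and 1.01 CPM, with a UMI in 3 of the 73 dividing cells, and Gpnmb at 9.61 and 15.5 CPM. The neutrophil markers summed to 352 and 850 CPM. In all libraries only 6 cells carried at least 3 of 5 melanoma markers, 5 in LAIR1KO tumor-bearing and 1 in WT tumor-bearing lung. In LAIR1KO tumor-bearing lung 2 of these cells held at least 10 members: a macrophage-like cell with no hashtag (37 members, 93781 UMIs) and a pericyte or smooth muscle-like cell (21 members, 78915 UMIs), which is 1 of the 132. Scrublet, a doublet caller, marked 1 of the 132 dividing cells.

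The S and G2/M genes were not in the same balance everywhere. Over all cells of a class, S members stood at 5.93 and G2/M members at 3.31 UMIs per 10000 in interstitial macrophage-like cells. In T cell-like cells the levels were 11.5 and 13.7, and in dendritic cell-like cells 4.81 and 5.66. G2/M genes thus made up 35.8% of the S and G2/M UMIs in the macrophages, 54.2% in T and 54.1% in dendritic cell-like cells. Pcna, the highest S member of the macrophages, stood at 245 CPM there and at 246 CPM in T cell-like cells, where the S sum was higher. In the macrophages 521 of its UMIs lay inside and 1859 outside the call from other genes. The class shares thus also read cells outside that call, and the part of Pcna in them was not tested. Endothelial cell-like cells stood at 3.46 and 1.55 and fibroblast-like cells at 2.15 and 0.882. Neutrophil-like cells, with no cell of at least 10 members, had 0.501 S and 3.44 G2/M UMIs per 10000. Nearly all of that came from few genes: Cks2, a small partner of cyclin-dependent kinases, stood at 243 CPM with a UMI in 24.1% of neutrophil-like cells, and Kif23, a kinesin of the cleavage furrow, at 72.4 CPM with a UMI in 10.8%. There Mki67 had 0 UMIs and Top2a 1. Hmgb2 stood at 907 CPM in neutrophil-like and 298 CPM in interstitial macrophage-like cells.

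Within the dividing cells too, G2/M genes took a larger part in dendritic and T cell-like cells than in the macrophages. G2/M members made up 46.4% of the S and G2/M UMIs of dividing interstitial macrophage-like cells (exact 95% interval 45.0 to 47.9), 59.3% in dendritic (56.1 to 62.4) and 58.6% in T cell-like cells (56.0 to 61.3). The intervals treat each UMI as an independent draw and leave out the spread between cells. Single macrophages ranged widely: 29 of the 73 had under 25% G2/M UMIs, 35 had 25 to 75% and 9 had over 75%, with a median of 27.8%. Among the 16 dendritic cell-like cells these numbers were 4, 7 and 5, and among the 11 T cell-like cells 1, 8 and 2. The median dendritic cell-like cell had 54.5% and the median T cell-like cell 64.7%. The differences between classes were not tested, since the cells come from the same 4 libraries. The median dividing macrophage showed 20 of the 41 members, and the highest count in any cell was 38.

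**Figure D2:**
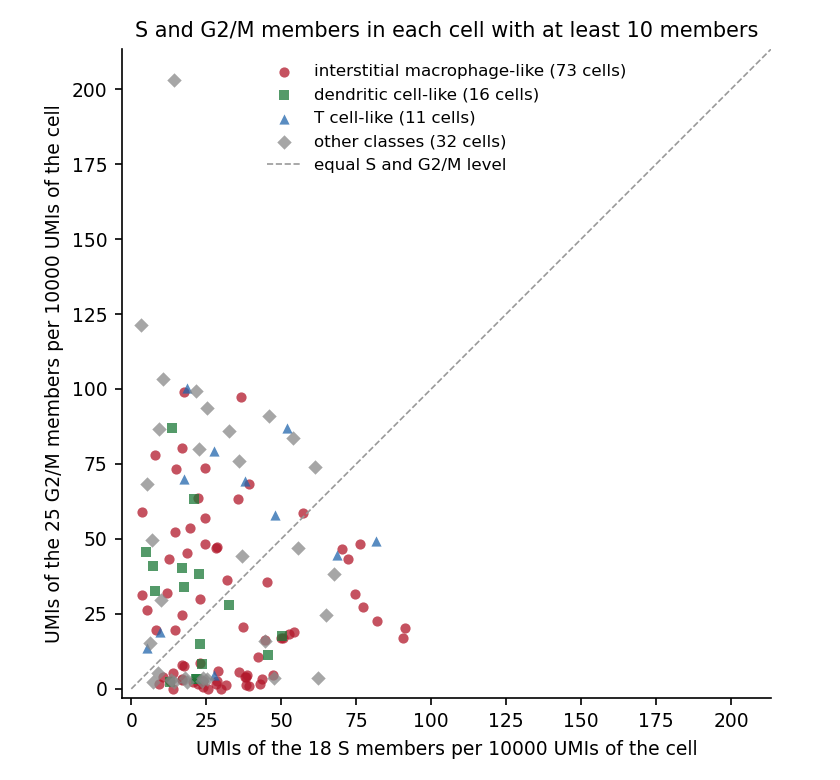
S member UMIs (x axis) against G2/M member UMIs (y axis), both per 10000 UMIs of the cell, for the 132 dividing cells: 73 interstitial macrophage-like, 16 dendritic, 11 T cell-like and 32 others. The dashed line marks equal levels; the macrophages spread from the S side to the G2/M side with a median G2/M share of 27.8%.

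T cell-like cells led for many members, and the count depended on how replicates were weighted. Among classes with at least 100 cells, with the UMIs of all replicates pooled, they led for 36 of the 46 genes, and by the mean over replicates for 23, with natural killer cell-like cells leading for 10. Pooled T cell-like levels were 180 CPM for Top2a, 126 CPM for Mki67, 246 CPM for Pcna and 80.3 CPM for Mcm5, while the mean for Pcna was 155 ± 150 CPM (n = 7), below the 234 CPM of interstitial macrophage-like cells. The spread between replicates was as large as the level: Top2a averaged 122 ± 180 CPM (SD, n = 7 replicates with at least 10 cells) and Pclaf 115 ± 181 CPM. Where T cell-like cells did not lead in the pooled UMIs, the genes were Cenpf and Cenpa (B cell-like), E2f1 and Bub1b (alveolar macrophage-like), Mcm4 and Ccnb1 (natural killer cell-like), Ccne1 (fibroblast-like), Tk1 (interstitial macrophage-like), Cks2 (monocyte-like) and Kif23 (neutrophil-like). In dendritic cell-like cells the leading G2/M members were Mki67 at 81.2 ± 52.9 CPM, Cenpa, the centromere histone, at 79.3 ± 22.3 CPM and Top2a at 74.7 ± 56.4 CPM (n = 8). In interstitial macrophage-like cells Pcna stood at 234 ± 43.0, Mcm3 at 38.8 ± 13.1 and Mcm6 at 31.2 ± 13.8 CPM among S members, and Cenpa at 43.1 ± 10.1, Cks2 at 40.8 ± 13.3 and Top2a at 31.7 ± 23.2 CPM among G2/M members (n = 12). Stmn1, which takes microtubules apart, stood at 102 ± 58.7 CPM there and at 235 ± 42.8 CPM in endothelial and 244 ± 59.0 CPM in alveolar type 2 cell-like cells, classes with few dividing cells. UMIs count the 3' ends of molecules, so these levels carry no correction for length.

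Members differed in how far they were confined to dividing macrophages. Because members had chosen the cells above, this was measured in the 65 interstitial macrophage-like cells called from the 70 other genes alone, which made up 4.17% of the class and held 8.16% of its UMIs. The median G2/M member had 84.0% of its UMIs in these cells and the median S member 46.0%. The 70 genes hold more G2/M than S genes, so the call itself leans toward cells late in the cycle. How far this set the gap between the medians was not tested. Nusap1, a spindle protein, had 129 UMIs in the dividing cells and 3 in the other 1495 (97.7%), and Birc5, survivin of the chromosomal passenger complex, had 164 and 6 (96.5%). Top2a had 319 and 28 (91.9%), at 402 CPM in dividing and 3.13 CPM in other cells. Mki67 was less confined, with 217 and 97 UMIs (69.1%), and 4.95% of the other cells held a UMI of it. Among S genes Ccne2 (97.6%), Rrm2 (97.4%) and Pclaf (91.5%) lay as high as the leading mitotic genes.

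The helicase genes were shared between dividing and other macrophages. Mcm5 had 135 UMIs in dividing and 178 in other cells (43.1%), and the 6 helicase genes ranged from 27.3% for Mcm3 to 45.0% for Mcm7. Pcna, which also serves DNA repair, had 521 and 1859 UMIs (21.9%) at 656 CPM in dividing and 208 CPM in other cells, and 61.7% of the other cells held a UMI of it. Lowest of all 46 members was Cenpa, with 75 and 350 UMIs (17.6%). All 46 members lay above the 8.16% that the share of UMIs alone would give. A total of Pcna or Cenpa UMIs in this class is thus mostly a reading of cells outside the call, and a total of Top2a or Birc5 UMIs a reading of cells inside it.

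**Figure D3:**
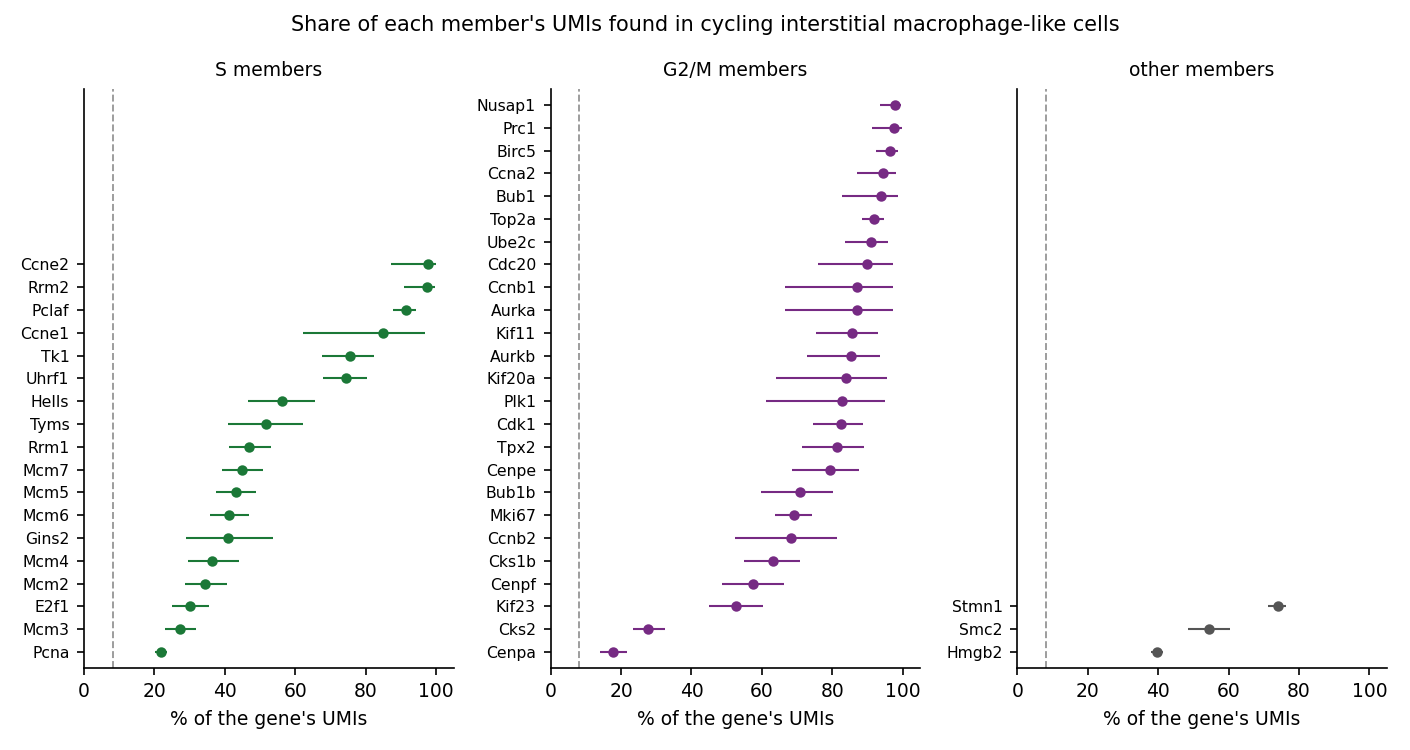
Percent of the UMIs of each member (y axis) that lay in the 65 dividing interstitial macrophage-like cells called without members (x axis), with exact 95% intervals. The dashed line at 8.16% is the share of all UMIs in those cells; Nusap1 (97.7%) is at the top and Cenpa (17.6%) at the bottom.

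In tumor-bearing lung, the share of dividing interstitial macrophage-like cells was lower in LAIR1KO than in WT replicates on average by each of the 3 calls, and with 3 replicates against 3 no difference could reach a p under 0.1. After thinning, the shares were 5.46, 8.64 and 5.84% in LAIR1KO tumor-bearing and 10.1, 8.70 and 17.9% in WT tumor-bearing lung. Means were 6.65 ± 1.74% (34 of 555 cells) and 12.2 ± 4.97% (64 of 501 cells; SD, n = 3 each). The groups did not overlap, though the highest LAIR1KO and the lowest WT replicate were nearly level. The difference of -5.58 percentage points had p = 0.1 in an exact permutation test, two-sided, the smallest p the design allows. Without WT tumor-bearing replicate 3 it was -2.73 points. By the call of at least 10 members the shares were 1.58, 6.10 and 3.40% against 5, 4.91 and 10.8%, which overlap (-3.20 points, exact permutation p = 0.3), and by the call from other genes the means were 2.30 ± 1.18 and 6 ± 2.95% (-3.70 points, p = 0.1, exact permutation). Cells without a hashtag, which no replicate could claim, had 5.26% dividing in LAIR1KO tumor-bearing (10 of 190) and 6.88% in WT tumor-bearing lung (15 of 218).

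The make-up of the class moved with this difference. The Cx3cr1 and Trem2 cluster, the one with most dividing cells, was 31.2 ± 0.599% of the interstitial macrophage-like cells in LAIR1KO tumor-bearing and 45.2 ± 4.21% in WT tumor-bearing lung (SD, n = 3 each). Within it the thinned share of dividing cells was 10.6 ± 4.71% in LAIR1KO tumor-bearing and 16.8 ± 6.22% in WT tumor-bearing lung. In the Folr2 and Cd163 cluster it was 3.93 ± 0.906 and 6.22 ± 2.68%, and in the Ccl3 and Ccl4 cluster 6.25 ± 2.56 and 10.7 ± 3.50%. The LAIR1KO mean was thus lower in each cluster, and the part of the make-up in the class share was not tested.

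The other comparisons of the share showed no separation. LAIR1KO normal replicates had 10.0, 8.41 and 7.95% dividing cells after thinning (8.79 ± 1.07%) and WT normal replicates 9.92, 8.62 and 2.56% (7.03 ± 3.93%), a difference of 1.75 points (exact permutation p = 0.8). LAIR1KO normal replicate 1 held only 20 interstitial macrophage-like cells. Between tumor-bearing and normal lung the difference was 5.19 points in WT, where 8 of 9 pairs of replicates were higher with tumor (exact permutation p = 0.2), and -2.14 points in LAIR1KO (p = 0.3, exact permutation). Counted at 3 members without thinning, the difference in WT was -3.55 points, at a median depth of 5390 UMIs in WT tumor-bearing and 6732 in WT normal lung. By the unthinned calls of at least 10 members and at least 8 other genes it was 2.91 and 1.61 points (exact permutation p = 0.6 for each). The part of depth was not tested. The comparison of tumor with normal lung in WT and that of LAIR1KO with WT in tumor-bearing lung share the 3 WT tumor-bearing replicates.

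**Figure D4:**
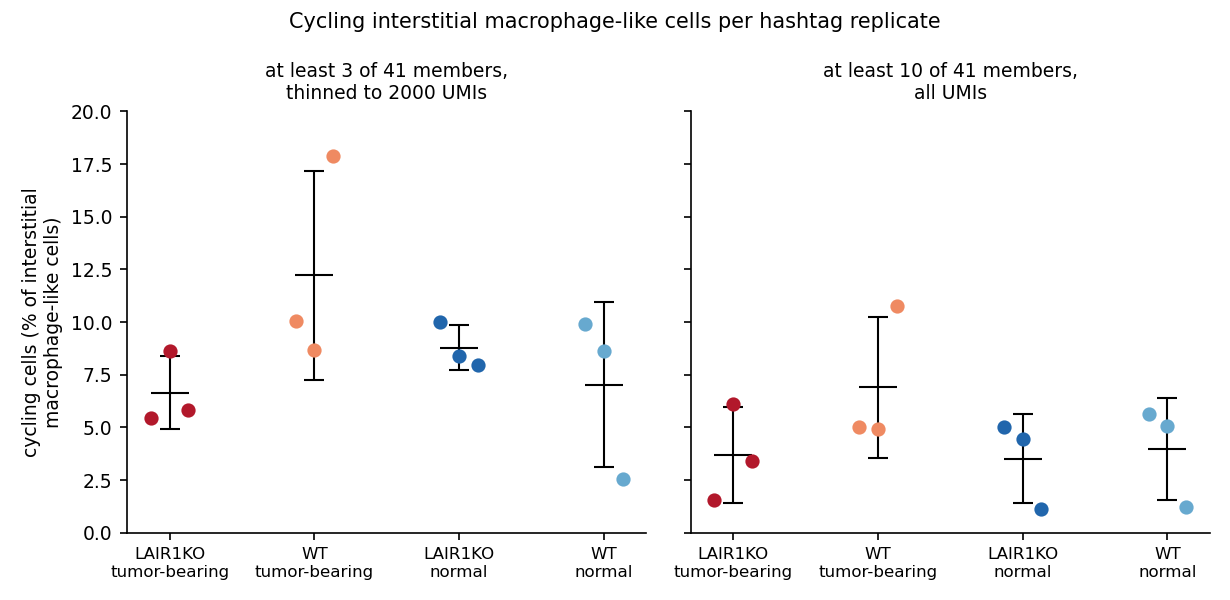
Share of dividing interstitial macrophage-like cells (y axis, percent) in the 3 hashtag replicates of each group, with mean ± SD, for thinned cells with at least 3 members and for unthinned cells with at least 10. LAIR1KO tumor-bearing replicates (5.46 to 8.64%) lie below WT tumor-bearing replicates (8.70 to 17.9%) by the first call and overlap by the second.

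By the call of at least 10 members, member levels of dividing macrophages overlapped between LAIR1KO and WT tumor-bearing lung. The members measured had themselves chosen these cells, so this call cannot decide whether the level per dividing cell differs. In cells with at least 10 members, the members summed to 91.9, 39.1 and 86.4 UMIs per 10000 in LAIR1KO tumor-bearing replicates (72.5 ± 29) and 75, 72.5 and 91.8 in WT tumor-bearing replicates (79.8 ± 10.5; SD, n = 3 each, exact permutation p = 0.9). Over all dividing cells of a group the sums were 76.8 in LAIR1KO tumor-bearing, 84.8 in WT lung with tumor, 81.8 in LAIR1KO normal and 79.9 in WT normal lung. LAIR1KO replicate 2, the low one, rested on 5 cells, and without it the difference in means was 9.35, against -7.31 with it. In the cells called from at least 8 other genes, the sums were 83.5, 86.7, 66.6 and 75.4, from 14, 32, 7 and 12 cells in the same order of groups. Only 1 LAIR1KO tumor-bearing replicate had enough of these cells for a level, against 3 of WT. A looser call, at least 3 other genes, took in 104 and 122 cells and gave 23.5 ± 12.1 in LAIR1KO tumor-bearing and 37.3 ± 7.28 in WT tumor-bearing lung (-13.8, exact permutation p = 0.3).

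Outside dividing cells the group means of the members lay between 6.66 and 8.23 UMIs per 10000. In interstitial macrophage-like cells with fewer than 10 members they summed to 7 ± 0.262 UMIs per 10000 in LAIR1KO tumor-bearing, 8.23 ± 0.774 in WT lung with tumor, 7.39 ± 1.06 in LAIR1KO normal and 6.66 ± 0.423 in WT normal lung (SD, n = 3 each). The dividing cells held 37.9 ± 14.1, 53.4 ± 13.1, 30.5 ± 24.5 and 44.1 ± 24.9% of all member UMIs of the class in these groups. Outside them the tumor-bearing replicates did not overlap, at 6.70, 7.11 and 7.18 in LAIR1KO and 7.40, 8.37 and 8.93 in WT. Outside the cells called from at least 8 other genes they overlapped, at 6.84, 8.65 and 7.18 against 7.57, 8.86 and 9.65. These differences were not tested. G2/M genes made up 44.9% of the S and G2/M UMIs in dividing cells of LAIR1KO tumor-bearing (exact 95% interval 42 to 47.9), 41.9% in WT tumor-bearing (39.8 to 43.9), 52.3% in LAIR1KO normal (47.1 to 57.6) and 58.0% in WT normal lung (54.6 to 61.4). The intervals treat each UMI as an independent draw and leave out the spread between cells and replicates. Replicates ranged from 14.6 to 56.9% in LAIR1KO tumor-bearing and from 41.3 to 44.3% in WT tumor-bearing lung, and in WT normal lung the 2 replicates with enough cells had 54.9 and 64.6%. In WT, the tumor-bearing replicates thus lay below the normal ones, from 37 and 11 cells.

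No member passed the gene test in interstitial macrophage-like cells in any comparison. Of the 46 members 26 had enough UMIs to be tested (12 S, 11 G2/M and the 3 others, from 100 UMIs up), and 20 with 20 to 112 UMIs were not tested. In LAIR1KO against WT tumor-bearing lung 0 of 26 were called by edgeR (adjusted p under 0.05), where 0.0789% of all 7601 genes were called. At an unadjusted p under 0.05 there were 11 members, all lower in LAIR1KO, with edgeR and 5 with DESeq2, against 3.28% of all genes lower with edgeR. Fitted log2 changes lay below 0 for 12 of 12 S members (median -0.74, range -1.28 to -0.34), 10 of 11 G2/M members (median -0.76, -1.59 to 0.09) and 3 of 3 others, while about as many of all genes lay above 0 as below. The size rested in part on single replicates: without WT tumor-bearing replicate 3 there was 1 of 23 members at an unadjusted p under 0.05 with edgeR and the median over all members was -0.21, against -0.74 with all replicates. Without LAIR1KO tumor-bearing replicate 1 these were 3 of 28 and -0.44, and without LAIR1KO tumor-bearing replicate 3 they were 18 of 28 and -0.99. S and G2/M genes thus had nearly the same median. The count of calls depended on the filter on low counts: with all 17121 genes that had a UMI and all 46 members in the fit, edgeR called 7 members lower in LAIR1KO (Mcm6, Stmn1, Mcm5, Top2a, Rrm2, Uhrf1 and Kif11), where 0.736% of all genes were called.

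Single members had lower means in LAIR1KO, with wide spread between replicates. Mcm6, of the helicase, had 18.4, 36.1 and 27 CPM in LAIR1KO tumor-bearing and 42.3, 35.4 and 67.8 CPM in WT tumor-bearing lung, a log2 change of -0.93 ± 0.26 (SE; edgeR adjusted p = 0.311, the lowest of the members). Mcm5 had 19.3, 36.1 and 24.8 CPM against 32.7, 42.9 and 71.5 CPM (-0.997 ± 0.31, edgeR adjusted p = 0.393). Both overlapped between the groups in 1 replicate. Top2a had 11.9, 8.03 and 32.5 CPM in LAIR1KO tumor-bearing and 30.2, 31.1 and 75.2 CPM in WT tumor-bearing lung (-1.17 ± 0.49, edgeR adjusted p = 0.662). Mki67 had 18.4, 10.0 and 33.6 CPM against 38.7, 25.7 and 51.4 CPM (-0.70 ± 0.33, edgeR adjusted p = 0.714). Replicate 3 was the highest of its group for both genes, the groups overlapped, and over fits that each left out 1 replicate the change of Top2a ranged from -2.13 to -0.52. Pcna, with 203, 235 and 227 CPM in LAIR1KO tumor-bearing and 248, 274 and 334 CPM in WT tumor-bearing lung, did not overlap between the groups (-0.35 ± 0.15, edgeR adjusted p = 0.639). Rrm2 had 1.84, 4.01 and 5.52 CPM in LAIR1KO tumor-bearing and 12.1, 9.65 and 20.1 CPM in WT tumor-bearing lung and was too low for the test.

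Between tumor-bearing and normal lung in WT, the S members lay higher than the G2/M members. Again 0 of 26 members were called by edgeR, where 0.447% of all genes were, and 9 members, all of S phase, were higher with tumor at an unadjusted p under 0.05 (8 with DESeq2), against 5.04% of all genes higher with edgeR. All 12 S members lay above 0 (median log2 0.90, 0.22 to 1.38) and 8 of 11 G2/M members did (median 0.07, -0.62 to 0.66). Mcm6 averaged 48.5 ± 17 CPM in WT tumor-bearing and 21.9 ± 2.96 CPM in WT normal lung (SD, n = 3 each), with log2 1.16 ± 0.30 (SE, edgeR adjusted p = 0.0864), and Mcm5 averaged 49.0 ± 20.1 and 19.4 ± 7.41 CPM (log2 1.31 ± 0.36, edgeR adjusted p = 0.118). Mki67 averaged 38.6 ± 12.8 and 35.8 ± 16.7 CPM (log2 0.05 ± 0.34), and Top2a had 45.5 ± 25.7 and 36.3 ± 23.2 CPM (log2 0.39 ± 0.50). With no filter on low counts edgeR called 7 members higher (Mcm6, Stmn1, Mcm7, Mcm5, Pclaf, Uhrf1 and Hells; 1.4% of all genes), and with another rule for the hashtags 2 (Mcm6 and Hells; 0.636% of all genes). Without WT tumor-bearing replicate 3 both Mki67 and Top2a had a log2 change of -0.26, the S median was 0.57 with 10 of 12 above 0 and the G2/M median -0.30 with 1 of 8 above 0. The median over all members was then 0.04, against 0.47 with all replicates, and 2 members were at an unadjusted p under 0.05 with edgeR. Without WT normal replicate 3 that median was 0.14 and without WT normal replicate 1 it was 0.86. The gap between S and G2/M genes was not tested, and this comparison also sets female against male lungs.

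In LAIR1KO the median member lay near 0 in the same comparison, and its sign depended on the processing. With 0 of 26 members called by edgeR and 0% of all genes, the median log2 was 0.11 for S and 0.04 for G2/M members, with 0 members at an unadjusted p under 0.05 by edgeR or DESeq2. Over all 26 the median was 0.04, against -0.36 over 35 members with clusters built with the cell cycle genes and -0.29 over 32 with the other hashtag rule. It was -0.34 without LAIR1KO tumor-bearing replicate 3 and 0.50 without LAIR1KO normal replicate 2. The test of the difference between both tumor effects called 0 of 26 members by edgeR, where 0.724% of all genes were called. S members had a median of -0.89 there, with 1 of 12 above 0, and G2/M members a median of -0.16, with 5 of 11 above 0 (lowest edgeR adjusted p = 0.339; 2 members at an unadjusted p under 0.05 by edgeR and 2 by DESeq2). Over all members the median was -0.42, and without LAIR1KO normal replicate 2 it turned to 0.20, with 17 of 32 above 0. Without WT tumor-bearing replicate 3 it was -0.18 and without WT normal replicate 1 it was -0.998. LAIR1KO against WT in normal lung had 0 of 26 members called by edgeR, where 0.763% of all genes were, and 0 at an unadjusted p under 0.05 by edgeR or DESeq2; with no filter on low counts 1 was called (1.52% of all genes), Rrm2, which had 0 UMIs in LAIR1KO normal lung and 17 in WT normal lung. There S members split evenly (6 of 12 above 0) and G2/M members lay mostly below 0 (9 of 11). The median of the 26 was -0.15, but 0.45 with clusters built with the cell cycle genes and 0.16 with the other hashtag rule, and from -0.80 without LAIR1KO normal replicate 2 to 0.17 without WT normal replicate 1, and this comparison too sets female against male lungs.

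**Figure D5:**
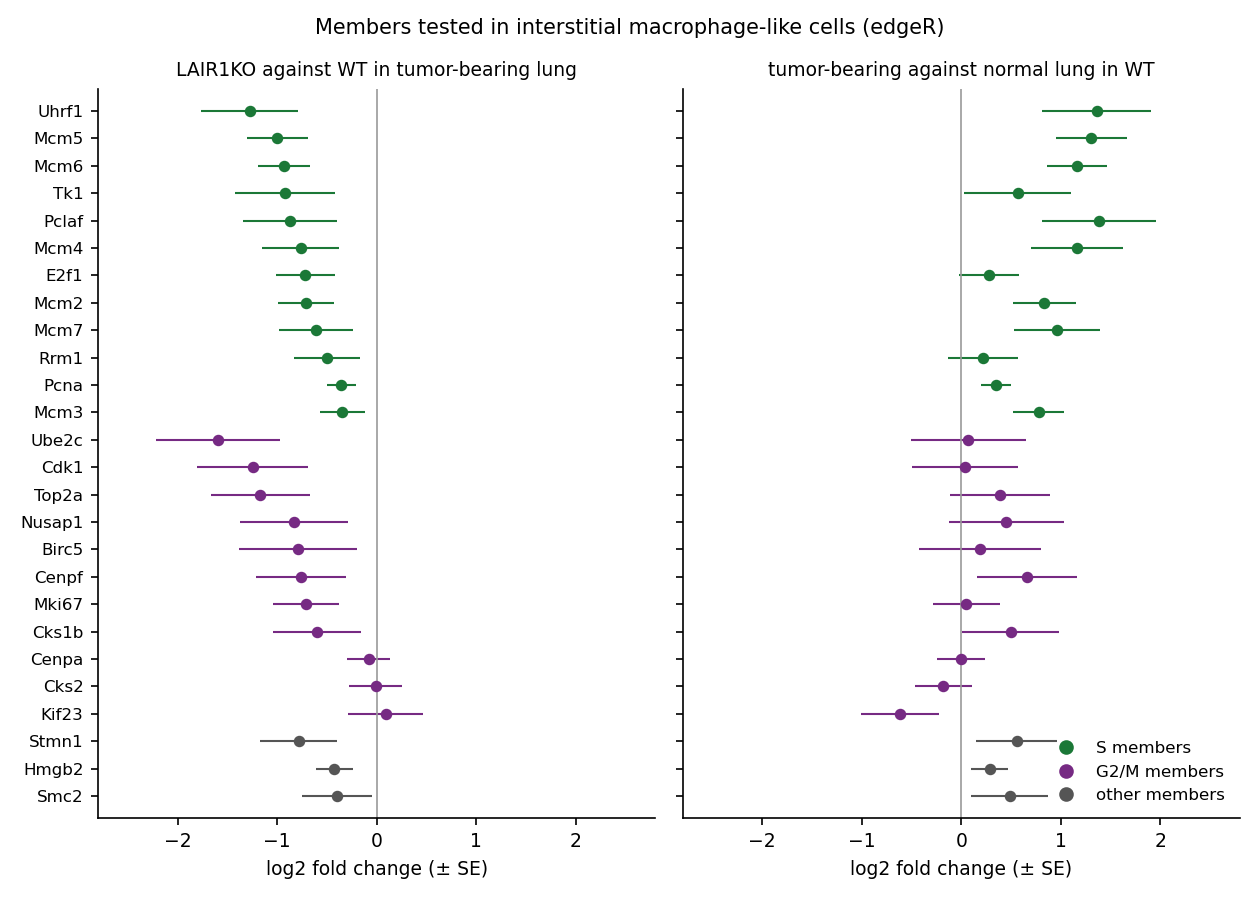
Fitted log2 change ± SE (x axis) of the 26 tested members in interstitial macrophage-like cells, left for LAIR1KO against WT in tumor-bearing lung and right for tumor-bearing against normal lung in WT. None passed edgeR at an adjusted p under 0.05; on the left 25 of 26 lie below 0, and on the right the 12 S members lie above 0 while the G2/M members straddle it.

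Cell cycle genes that are not members were read from separate lists. Of 34 further S genes 12 were tested, with 0 called by edgeR: the median log2 was -0.49 in LAIR1KO against WT tumor-bearing lung (0 of 12 above 0) and 0.57 in WT tumor-bearing against normal lung (12 of 12 above 0). Of 50 further G2/M genes 7 were tested and 0 called, with medians of -0.43 and 0.10. Of 12 genes of entry into the cycle 7 were tested and 0 called, with medians of -0.12 and 0.23. Ccnd1, the cyclin that starts G1, stood at 130.4 ± 16.6 CPM in LAIR1KO tumor-bearing, 178 ± 46.4 in WT lung with tumor, 129 ± 24.1 in LAIR1KO normal and 103 ± 21.6 in WT normal lung, with log2 -0.42 (edgeR adjusted p = 0.651) for LAIR1KO against WT with tumor and 0.75 (edgeR adjusted p = 0.0864) for tumor against normal in WT. Of 17 brakes of the cycle 15 were tested and 0 called, with medians of 0.00 and -0.06. The inhibitor Cdkn1a stood at 467 ± 94.3 CPM in LAIR1KO tumor-bearing and 478 ± 29.3 CPM in WT tumor-bearing lung.

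Members were also tested with the dividing cells taken out of the sums. Without the thinned-call cells 10 members were still tested in interstitial macrophage-like cells, with a median log2 of -0.16 for LAIR1KO against WT in tumor-bearing lung and 0.10 for tumor-bearing against normal lung in WT. Without the cells of at least 10 members 12 were tested, with medians of -0.22 and 0.18. In both cases 0 were called by edgeR, where 0.0702 and 0.463% of all genes were called in these comparisons without the thinned-call cells and 0.11 and 0.646% without the cells of at least 10 members. With all cells, the medians over the 26 members were -0.74 and 0.47, over a different number of genes.

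In the other classes the dividing cells were too few to carry a comparison. Dendritic cell-like cells had 6 dividing of 59 in LAIR1KO tumor-bearing, 5 of 64 in WT lung with tumor, 3 of 24 in LAIR1KO normal and 2 of 25 in WT normal lung. T cell-like cells had 5 of 51, 3 of 44, 1 of 18 and 2 of 26 in the same groups. Alveolar macrophage-like cells were almost all from tumor-bearing lung, with 3 dividing of 107 in LAIR1KO and 4 of 92 in WT, and only 8 and 2 such cells came from LAIR1KO and WT normal lung. Endothelial cell-like cells with at least 10 members numbered 0 of 248 in LAIR1KO tumor-bearing, 3 of 240 in WT lung with tumor, 3 of 453 in LAIR1KO normal and 0 of 171 in WT normal lung. The thinned call did not keep this order: it counted 5 of 197 (2.54%), 4 of 192 (2.08%), 7 of 443 (1.58%) and 1 of 163 (0.613%) in the same groups. Top2a had 0 UMIs in LAIR1KO tumor-bearing endothelial cell-like cells, 40 UMIs in 6 cells in WT lung with tumor, 58 in 6 cells of LAIR1KO normal and 1 in WT normal lung. None of the 10 members tested in that class was called by edgeR in any comparison, with 3, 3, 4 and 3 members at an unadjusted p under 0.05 in LAIR1KO against WT with tumor, LAIR1KO against WT in normal lung, tumor against normal in WT and tumor against normal in LAIR1KO, where 0, 0.655, 0.0855 and 1.67% of all 7018 genes were called, and 4 in the difference of the tumor effects, where 0.0285% were. The gene test of LAIR1KO against WT with tumor called 0 of 5 members by edgeR in dendritic (0.0591% of all genes), 0 of 3 in T (0%) and 0 of 6 in alveolar macrophage-like cells (0.0248%), with 0, 0 and 1 members at an unadjusted p under 0.05.

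Of the classes described here 1 had a member called, and that call rests on 1 cell. In alveolar type 2 cell-like cells Top2a was called higher in LAIR1KO than in WT normal lung (edgeR log2 7.62, adjusted p = 0.0125), where 0.693% of 7653 genes were called. In the same class 0 of the 13 members tested were called by edgeR in LAIR1KO against WT with tumor, tumor in WT, tumor in LAIR1KO or the difference of the tumor effects, where 0.144, 0.588, 0.627 and 0.379% of all genes were, with 2, 0, 0 and 0 members at an unadjusted p under 0.05. All 24 UMIs of LAIR1KO normal lung lay in 1 cell of replicate 3, replicate 1 had too few cells to enter, and WT normal lung had 0 UMIs in 171 cells, so the fitted change is no bound. Without replicate 3 of LAIR1KO normal lung the log2 change was 0, without replicate 2 or 3 of WT normal lung the edgeR adjusted p was 0.0687 or 0.0589, and with DESeq2 the adjusted p was 0.999. In LAIR1KO tumor-bearing lung Top2a had 17 UMIs in 2 alveolar type 2 cell-like cells, 16 of them in 1 cell, and in WT tumor-bearing lung it had 0.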

How the data were processed

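Lung cells of 4 libraries, 1 per group, were profiled on the Chromium 3' platform of 10x Genomics, per the labels. The authors deposited counts, as whole UMIs per gene and hashtag for each barcode. The submitters' processing notes name Cell Ranger 4.0.0, STAR and mm10, besides Seurat 3.2.0 and R 4.0.0. The members and lists were chosen with earlier results of these data known.

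Cells with at least 300 genes and at most 10% mitochondrial UMIs were kept (15793). HTODemux of Seurat 5.3.0 (R 4.3.3, quantile 0.99) left 8468 cells with 1 hashtag and set aside 2963 doublets and 4362 cells with none. Scrublet marked 2.15% of cells, which stayed in except in an alternative. Cells were clustered with scanpy 1.11.5 and leidenalg 0.10.2 (Python 3.11.15, 2000 variable genes, of which 1993 remained without cell cycle genes, 30 components, 15 neighbours, resolution 1) into 31 clusters, of which 5 stayed unnamed. The names were rebuilt here and may differ from those of others.

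Sums of UMIs over the cells of a class in a replicate (10 cells or more) were tested, and all groups shared 1 estimate of spread in edgeR 4.0.16 (quasi-likelihood test, TMM, filterByExpr, Benjamini-Hochberg over all genes tested). DESeq2 1.42.0 was an alternative, as were no filter, other hashtag and cluster rules, other calls of a dividing cell and leaving out each replicate. Shares and levels were compared by exact permutation over 3 against 3 replicates, two-sided. Intervals of shares are exact (Clopper-Pearson, 95%), and a share of 0 was given the limit of 3 counts. The calls of a cell from at least 10 members and at least 8 other genes were added after the data were seen. Genes named are Mki67, Top2a, Mcm5, Pcna, Stmn1, Hmgb2, Ccnd1, Cdkn1a, members past the threshold and, by class, the 3 highest S and G2/M members; Mcm6, Rrm2 and those of the plots were named after their values were seen. On simulated counts for LAIR1KO against WT tumor-bearing interstitial macrophage-like cells (7403 genes, 200 changed), the gene test found 64.6% of the 2-fold and 95.4% of the 4-fold changes, with a mean of 13 false calls. The changed genes were drawn at random from all genes in the fit, so these are not rates for the members.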

Additional observations from a re-analysis of the deposited data

How the results depend on the processing

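No paired analysis was possible because each group is 1 library and no label ties a hashtag number in one library to the same number in another. Differences are LAIR1KO minus WT and tumor-bearing minus normal, shares in percentage points and levels in member UMIs per 10000. Leaving out each replicate in turn, the share of dividing interstitial macrophage-like cells ranged from -7.34 to -2.73 for LAIR1KO against WT with tumor, -0.480 to 3.20 for LAIR1KO against WT in normal lung, 2.35 to 6.96 for tumor in WT and -3.14 to -1.53 for tumor in LAIR1KO. The level per cell called from at least 3 other genes (-13.8 for LAIR1KO against WT with tumor) ranged from -20.8 to -9.65, -10.9 to 4.61, 6.26 to 18.2 and -6.17 to 10.2 in the same comparisons, and the G2/M share from -5.75 to 6.41, -22.4 to -11.2, -21.3 to -16.9 and -11.1 to 7.06. Members called stayed at 0 to 0 in each comparison except tumor in WT, where the range was 0 to 1 (Mcm6, without WT tumor-bearing replicate 2).

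For LAIR1KO against WT with tumor, the level by the call of at least 10 members was -7.31 and ranged from -17.0 to 9.35 (9.35 without LAIR1KO tumor-bearing replicate 2). There the share was lower in LAIR1KO under each alternative run. The level turned to 4.14 with the call of at least 8 other genes, where only 1 LAIR1KO tumor-bearing replicate had enough cells, against 3 of WT. Over all such cells of a group the sums were 83.5 in LAIR1KO tumor-bearing and 86.7 in WT tumor-bearing lung. The G2/M share turned to -0.782 with cells called from other genes. In normal lung the share for LAIR1KO against WT turned to -1.60 at 5 members, -4.30 at 3 members with no thinning and -1.99 at 1000 UMIs. It was -0.376 with 3 other genes and -0.458 at 10 members. The level turned to 0.618, 11.9 and 38.0 with cells called from 3 members, 10 members and 8 other genes. Of these, 11.9 and 38.0 each set 1 LAIR1KO replicate against 2 of WT. Over all cells with at least 8 other genes the sums were 66.6 in LAIR1KO normal and 75.4 in WT normal lung. The G2/M share moved to -5.80 with cells called from other genes and -5.65 at 10 members. For tumor in WT the share turned to -3.55 at 3 members with no thinning and the G2/M share moved to -11.5 with cells called from other genes. For tumor in LAIR1KO the share turned to 0.661 at 5 members, 0.715 at 1000 UMIs, 2.93 with 3 other genes and 0.167 at 10 members. The level turned to -0.534 with 2 other genes, -15.1 at 10 members and -30.0 with 8 other genes. The -15.1 rested on 1 LAIR1KO normal replicate and the -30.0 on 1 replicate of each group. Over all cells with at least 8 other genes the sums were 83.5 in LAIR1KO tumor-bearing and 66.6 in LAIR1KO normal lung. With no filter on low counts edgeR called 7 members for LAIR1KO against WT with tumor, 1 in normal lung and 7 for tumor in WT, and another hashtag rule gave 2 for tumor in WT. For tumor in WT, leaving out each replicate gave log2 changes of -0.26 to 0.52 for Mki67 (-0.26 without WT tumor-bearing replicate 3, -0.22 without WT normal replicate 3) and of -0.26 to 0.70 for Top2a (-0.26 without WT tumor-bearing replicate 3). The causes were not tested. The other 86 values of shares, levels and counts under alternatives stayed on their side. Depth limits the calls: 2151 cells were too shallow to be thinned, and 20 members had too few UMIs for the gene test.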
